A study of Mus musculus with 2 samples.

Results

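The nuclear genes for the subunits of respiratory complex I were measured in RNA from the newborn mouse hindbrain. Genes were chosen by name alone: every mouse gene whose symbol is Nduf, then a, b, c, s or v, then a number, among the 43346 mouse genes listed for each library. The rule found 36 genes, spread over 15 chromosomes, with 2 of them on X. Both libraries belong to 1 group. They are the hindbrain of pup 1 and of pup 3, of the mouse strain B6NCrl, at postnatal day 0, with no transgene, mutation or treatment in the labels. The input was 13 pg of RNA longer than 200 nt per library, an amount the labels call 1 cell-equivalent, and the labels point to a Smart-seq protocol, which amplifies full-length cDNA. A shared donor record is given for the pups, and their sex is not given. There is no second group, so no test was possible. A difference between pup 1 and pup 3 is a difference between 2 libraries, in which the animal, the dissection and the amplification of a small input cannot be told apart.

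Complex I, or NADH:ubiquinone oxidoreductase, is the entry point of electrons from NADH into the respiratory chain of the inner mitochondrial membrane. It is L-shaped. The arm in the matrix holds the flavin and the iron-sulfur clusters that carry electrons to ubiquinone, and the arm in the membrane pumps protons. The core of the membrane arm is encoded by mitochondrial DNA, while the core of the matrix arm and all the accessory subunits around both arms are encoded in the nucleus and imported. Neurons depend on this chain for most of their ATP, and inherited loss of complex I subunits is a known cause of Leigh syndrome, a disease of the brainstem and basal ganglia.

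The libraries held 35462381 expected counts in pup 1 and 29866728 in pup 3. An expected count divides a read that matches several transcripts among them by estimate, and so need not be whole. Of all counts, mitochondrial genes took 3.33% and 3.11%, and added spike-in RNA took 2.31% and 2.18%, in pup 1 and pup 3. Levels below are in TPM, which divides by transcript length and was rescaled to a total of 1000000 over nuclear genes. Markers of hindbrain were present and most markers of forebrain were at 0: all 6 neuronal, all 6 astrocyte and radial glia, and 5 of 6 hindbrain markers had counts of at least 5 in both pups, with En2 at 0. Among forebrain markers Otx1 did, and Emx1, Dlx1, Six3 and Lhx2 were at 0. The highest by mean in each list were Stmn2 and Tubb3 for neurons, Apoe and Fabp7 for glia, and Meis1 and Hoxb5 for hindbrain. Red cell markers, led by Hba-a2 and Hbb-bs, summed to 1486 TPM in pup 1 and 3941 in pup 3, with Slc4a1 at 0 and 1 counts and Alas2 at 909 and 0 counts. Muscle markers, led by Acta1, summed to 26.9 and 44.9 TPM, with Myh3 and Mylpf at 0. Tnnt3 had 214 and 0 counts, and Ckm had 37 and 4. In RNA from whole tissue, fewer cells of a type and less RNA per cell cannot be told apart.

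All 36 complex I genes were detected in both pups, at an expected count of at least 5, against 37.8% of 21461 nuclear protein-coding genes. Their counts ran from 778 to 11370 in pup 1 and from 765 to 16627 in pup 3, so none was near the limit of detection. Their share of all nuclear counts was 0.559% in pup 1, with a 95% Wilson interval of 0.557 to 0.562%. In pup 3 the share was 0.744%, with an interval of 0.740 to 0.747%. The intervals cover counting error only. Reads of amplified RNA are not independent molecules. The summed level was 14637 TPM for pup 1 and 19253 for pup 3, a mean of 16945 ± 3264 TPM (SD, n = 2).

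The 36 genes were high and unequal. The median gene had 320.0 TPM in pup 1 and 409 in pup 3. The range was 75.4 to 1194 TPM in pup 1, 15.8-fold, and 68.5 to 2316 TPM in pup 3, 33.8-fold. The median of the 36 mean levels, 385 TPM, lay at the 96.7 percentile of the 11905 protein-coding genes detected in at least 1 pup, and 79.3% of those genes lay below the lowest complex I gene. Of the 36, 26 had a mean between 200 and 700 TPM. The order of the genes was partly shared between the pups. Across the 36 genes the log2 levels had a Pearson r of 0.72 and a Spearman rho of 0.66, as a description of genes that share the same libraries. Genes with short transcripts had the higher levels (Spearman rho of mean TPM with the transcript length in the tables, -0.74), and TPM is itself divided by that length.

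**Figure D1:**
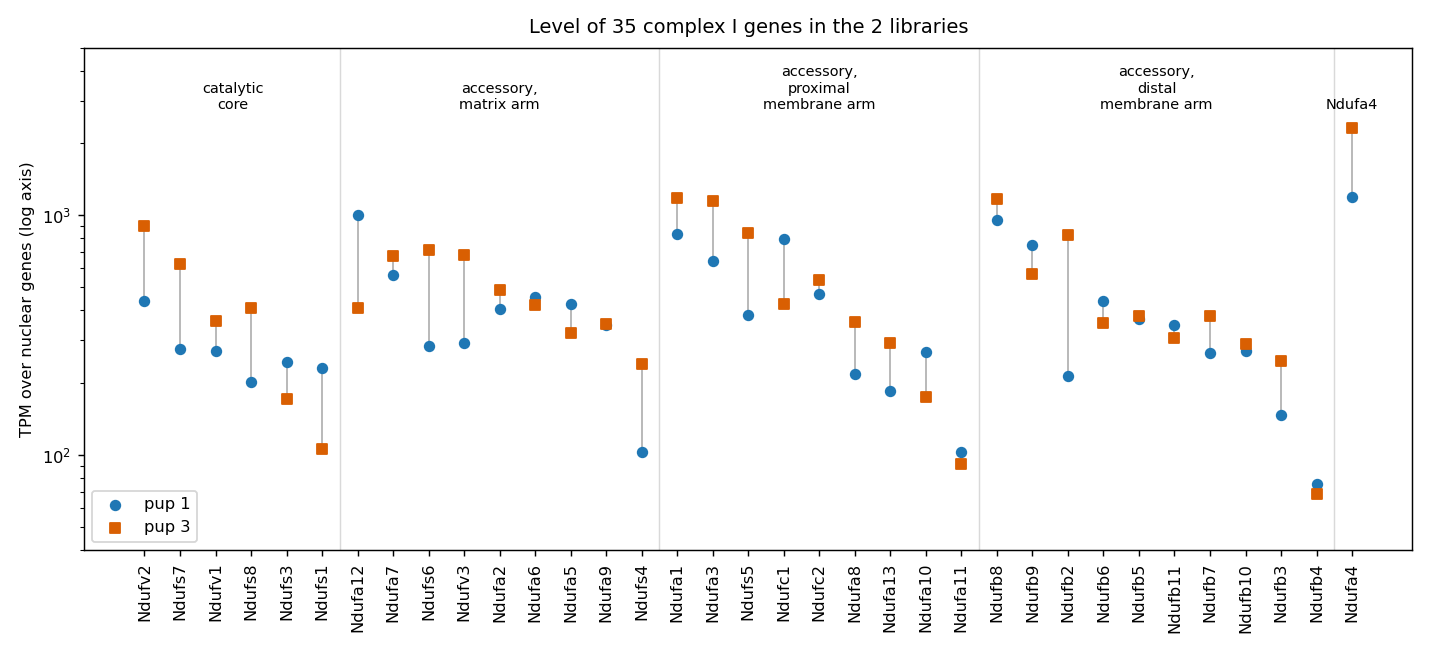
Level of 35 of the complex I genes in pup 1 (circles) and pup 3 (squares), in TPM over nuclear genes on a log axis, ordered by place in the complex and then by mean. Each point is 1 library, and the grey line joins the pups. Ndufa4 is highest in both pups and Ndufb4 is lowest in both.

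Most genes differed by less than 2-fold between the pups, and those past 2-fold were mostly higher in pup 3. The ratio is pup 3 over pup 1, as the log2 of TPM with a pseudocount of 1. Of the 36 genes, 24 were higher in pup 3 and 12 in pup 1, against 55.4% higher in pup 3 among the 2233 protein-coding genes whose geometric mean level lay within that of the complex I genes, 71.9 to 1663 TPM, and 46.8% among all those detected in at least 1 pup. A difference of at least 2-fold was seen for 11 genes, 30.6%, against 25.9% of those 2233 genes and 59.3% of all 11905 protein-coding genes detected in at least 1 pup. Of the 11, 9 were higher in pup 3, 25% of the 36 genes against 15.5% of the 2233, and 2 were higher in pup 1, 5.56% against 10.4%. Over all genes detected in at least 1 pup, these shares were 26.5% and 32.8%. No complex I gene differed by 4-fold on this scale, against 37.7% of the 11905 genes, a share not matched for level. Ndufb2, at a log2 ratio of 1.95, passed 4-fold with deposited FPKM (2.01), CPM of nuclear counts (2.01) and TPM scaled to the spike-ins (2.03). The median log2 ratio of the 36 was 0.28, against 0.11 for the 2233 genes and -0.16 for the 11905 genes. The median size of the difference, in either direction, was 1.49-fold for the 36 genes and 1.52-fold for the 2233. The 2233 genes share the level range of the 36 but mostly lay lower in it. Their median was 147 TPM in pup 1 and 159 in pup 3, against 320.0 and 409 for the 36. Of the 5 red cell markers detected in at least 1 pup, Hba-a1, Hba-a2, Hbb-bs and Hbb-bt were also higher in pup 3. Alas2 was lower, at 909 and 0 counts. The part of red cells in this shift was not tested.

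**Figure D2:**
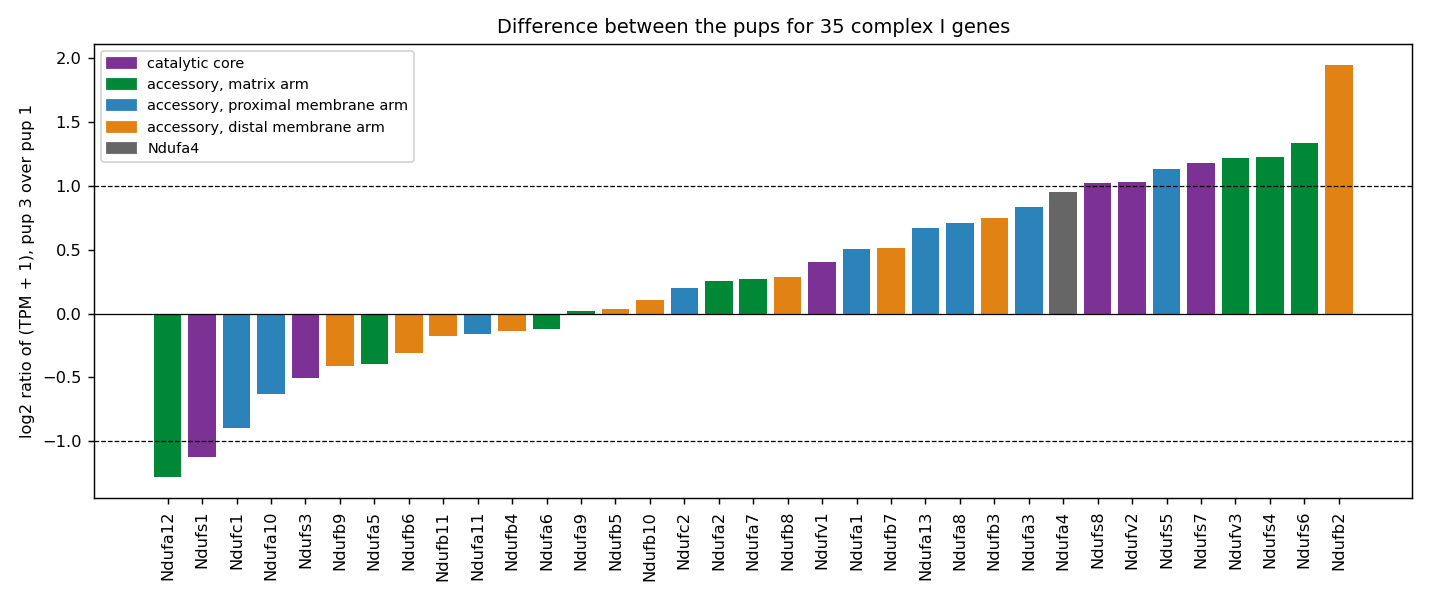
Log2 ratio of pup 3 over pup 1 for 35 of the complex I genes, coloured by place in the complex; each bar compares 1 library with 1 library. Dashed lines mark 2-fold, which 8 of the genes shown pass toward pup 3 and 2 toward pup 1.

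The 7 nuclear genes of the catalytic core did not move as a block. Their levels summed to 1839 TPM in pup 1 and 3004 in pup 3, a mean of 2422 ± 824 (SD, n = 2). Of the 7, 4 were at least 2-fold higher in pup 3, 1 was at least 2-fold higher in pup 1, and the median log2 ratio was 1.02. The shares among the 2233 genes of like level were 15.5% and 10.4%. The count of 4 became 2 under 3 of 7 other scalings, where Ndufv2 and Ndufs8 fell short. The median stayed between 0.91 and 1.10 under 7 other scalings of the libraries.

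Ndufv1 binds NADH and the flavin. Its level was 271 TPM in pup 1 and 360.0 in pup 3, a log2 ratio of 0.41 and a mean of 316 ± 62.6 TPM (SD, n = 2). Ndufv2, its iron-sulfur partner at the tip of the matrix arm, was the highest of the core, at 440 TPM in pup 1 and 900.2 in pup 3. The log2 ratio of Ndufv2 was 1.03, just past 2-fold, and its mean was 670.0 ± 326 TPM (SD, n = 2). Ndufs1 is the largest subunit and holds several iron-sulfur clusters of the chain. It went the other way, with 231 TPM in pup 1 and 106 in pup 3, a log2 ratio of -1.12 and a mean of 168 ± 88.5 TPM (SD, n = 2). In expected counts Ndufs1 was the highest of the 36 genes in pup 1, at 11370, and had 4500 in pup 3. So the 3 genes of the NADH-oxidizing end of the core had ratios on both sides of 0.

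The foot of the matrix arm, near the membrane, is where ubiquinone is reduced. Ndufs7, which carries the last iron-sulfur cluster before ubiquinone, had 276 TPM in pup 1 and 628 in pup 3, with a log2 ratio of 1.18 and a mean of 452 ± 249 TPM (SD, n = 2). Ndufs8, another iron-sulfur subunit, had 201 TPM in pup 1 and 408 in pup 3, a log2 ratio of 1.02 and a mean of 304 ± 147 TPM (SD, n = 2). Ndufs3, a core subunit without a cofactor of its own, differed in the other direction, with 244 TPM in pup 1 and 171 in pup 3 (log2 ratio -0.51, mean 207 ± 51.3, SD, n = 2). Exons of Ndufs1 overlap the opposite-strand non-coding gene Ino80dos by 489 nt, at 1470 and 1.61 counts. In all, exons of 15 of the 36 genes overlap another annotated gene, in 9 of them an opposite-strand gene with at least 5 counts in a pup. Use of strand in the counting is not stated in the labels or tables, so reads in those stretches may not be told apart.

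The accessory genes of the matrix arm held the gene furthest toward pup 1 and several of those furthest toward pup 3. The 9 genes summed to 3874 TPM in pup 1 and 4306 in pup 3 (mean 4090.0 ± 306, SD, n = 2). Their median log2 ratio was 0.25. Ndufa12, which sits on the matrix arm, was second only to Ndufa4 in pup 1, at 997 TPM, and had 409 TPM in pup 3. Its log2 ratio, -1.28, was the lowest of all 36 genes, and its rank among them went from 2 to 18. Ndufs6, a zinc-binding subunit needed late in assembly, had 283.5 TPM in pup 1 and 717 in pup 3 (log2 ratio 1.33). Ndufs4, often mutated in Leigh syndrome, had 102 TPM in pup 1 and 240.2 in pup 3 (log2 ratio 1.23, mean 171 ± 97.6 TPM, SD, n = 2). Ndufv3, a small subunit at the tip of the arm, had 293 TPM in pup 1 and 682 in pup 3 (log2 ratio 1.21). The other 5, Ndufa2, Ndufa5, Ndufa6, Ndufa7 and Ndufa9, lay between 323 and 677 TPM in both pups with log2 ratios from -0.39 to 0.27. Ndufa9 hardly differed, at 348 TPM in pup 1 and 353 in pup 3, and the sign of its ratio turned under 3 of the 7 other scalings.

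The accessory genes of the proximal membrane arm, next to the matrix arm, held some of the highest levels. The 9 genes summed to 3896 TPM in pup 1 and 5048 in pup 3 (mean 4472 ± 814, SD, n = 2), with a median log2 ratio of 0.50. Ndufa1, an X-linked subunit of a single membrane helix, had 835 TPM in pup 1 and 1183 in pup 3, a mean of 1009 ± 246 TPM (SD, n = 2) and a log2 ratio of 0.50. Ndufa3 had 641 TPM in pup 1 and 1143 in pup 3, a mean of 892 ± 355 TPM (SD, n = 2) and a log2 ratio of 0.83. Ndufs5, which faces the intermembrane space, was the only one of the 9 past 2-fold, with 384 TPM in pup 1 and 841 in pup 3 (log2 ratio 1.13). Ndufc1 and Ndufa10, a subunit related to nucleoside kinases, were lower in pup 3. Ndufc1 had 796 TPM in pup 1 and 426 in pup 3 (log2 ratio -0.90), and Ndufa10 had 269 TPM in pup 1 and 173 in pup 3 (log2 ratio -0.63). Ndufc2, Ndufa8 and Ndufa13 were higher in pup 3, with log2 ratios from 0.20 to 0.71.

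Ndufa11 was the second lowest of the 36 genes by mean, at 103 TPM in pup 1 and 91.9 in pup 3, although its counts, 5453 and 4302, ranked 13 and 24 among the 36. Its single transcript, Ndufa11-201, is 2661 nt long in the tables and 545 nt long under the same identifier in GENCODE M21, the annotation used here for names. With the shorter length the same counts would give 590.0 TPM in pup 1 and 528 in pup 3. Of the 13 genes with a single listed transcript, the other 12 had lengths within 1.5-fold in the 2 annotations. The place of Ndufa11 near the bottom of the list thus depends on the transcript model. Among genes with more transcripts, the leading Ndufa3-201 is 349 nt long in the tables and 515 nt in GENCODE M21. The level of Ndufa3 at the longer length was not calculated.

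The accessory genes of the distal membrane arm had the smallest median difference of the 4 places in the complex, but held Ndufb2, the gene that differed most. The 10 genes summed to 3833 TPM in pup 1 and 4578 in pup 3 (mean 4206 ± 527, SD, n = 2). Their median log2 ratio was 0.07, and 0.02 to 0.24 under the 7 other scalings. Ndufb8 was second of all 36 by mean, with 955 TPM in pup 1 and 1164 in pup 3 (log2 ratio 0.29, mean 1059.5 ± 148 TPM, SD, n = 2). Ndufb2 had 212 TPM in pup 1 and 822 in pup 3, with a log2 ratio of 1.95, and its rank went from 29 to 7. The expected counts of Ndufb2 were 1766 and 6105. It shares 146 nt of exon with the opposite-strand gene Braf, which was lower in pup 3, at 8135 and 5155 counts. Ndufb3 was among the lowest by mean, with 147 TPM in pup 1 and 247 in pup 3 (log2 ratio 0.75, mean 197 ± 70.8 TPM, SD, n = 2). Ndufb5, Ndufb6, Ndufb7, Ndufb9, Ndufb10 and Ndufb11 had log2 ratios from -0.41 to 0.51. The sign of the small Ndufb5 ratio, 0.04, turned under 3 of the 7 other scalings.

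Ndufb4 was the lowest complex I gene in both pups, at 75.4 TPM in pup 1 and 68.5 in pup 3, a mean of 72.0 ± 4.83 TPM (SD, n = 2). Its log2 ratio, -0.14, was small, and the sign turned under 3 of the 7 other scalings. This level cannot be read alone, because the whole Ndufb4 coding sequence exists a further time in the genome. Ndufb4 lies on the reverse strand at chr16:37647170-37654453 (GRCm38). Ndufb4c, annotated as a processed pseudogene, an intronless copy, lies on the reverse strand at chr15:73809507-73809896. The sequences match at 100% over 390 nt, which takes in all 387 coding bases and the stop codon. The first 120 coding bases of both are shown because no read within them can be assigned to either locus by its letters. Sequences here are the gene strand from GENCODE transcripts on GRCm38, 5′ to 3′, with any base that differs within a pair in capitals.
Ndufb4: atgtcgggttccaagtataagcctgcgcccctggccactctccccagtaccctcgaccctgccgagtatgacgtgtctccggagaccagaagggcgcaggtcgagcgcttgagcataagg
Ndufb4c: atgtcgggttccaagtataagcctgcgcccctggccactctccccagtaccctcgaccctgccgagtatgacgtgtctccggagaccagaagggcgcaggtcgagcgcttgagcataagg

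The tables gave most of the shared reads to the copy. In pup 1 the expected count was 778 for Ndufb4 and 2990 for Ndufb4c, and in pup 3 it was 765 and 2472. The copy thus held 79.3% of the joint count in pup 1 and 76.4% in pup 3. The levels of gene and copy summed to 571 TPM in pup 1 and 534 in pup 3. The mean was 552 ± 26.6 TPM (SD, n = 2). In this sum the copy's reads are divided by the length of the copy, which matches Ndufb4 over 390 nt. The coding transcript Ndufb4-201 is 971 nt long. Reads of the copy that came from that transcript would thus add less TPM than they do here. The rank of Ndufb4 with these reads at its own length was not calculated. How the reads truly divide between the loci cannot be told from these tables.

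A near-identical nuclear copy, at 95% identity or more over at least 200 nt, was found for 5 of the 36 genes, and in the other 4 it held little. Gm15920, a processed copy of Ndufa12 on chromosome 5, differs from it at 2 of the 399 coding bases aligned and held 1.43% of the joint count in pup 1 and 0.890% in pup 3. BC002163, a processed copy of Ndufs5 on chromosome 16, differs at 2 of 318 coding bases and held 0.600% and 1.02%. Gm12251 held 0.886% and 0.440% of the joint count with Ndufs3, and Gm6444 held 0.173% and 0.156% of that with Ndufb11. A stretch of 120 coding bases of each of the first 2 pairs shows how few letters separate a complex I gene from its copy.
Ndufa12: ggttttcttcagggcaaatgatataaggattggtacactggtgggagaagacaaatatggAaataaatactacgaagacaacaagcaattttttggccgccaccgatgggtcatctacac
Gm15920: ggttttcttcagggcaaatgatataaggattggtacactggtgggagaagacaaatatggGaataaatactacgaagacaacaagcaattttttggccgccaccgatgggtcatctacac
Ndufs5: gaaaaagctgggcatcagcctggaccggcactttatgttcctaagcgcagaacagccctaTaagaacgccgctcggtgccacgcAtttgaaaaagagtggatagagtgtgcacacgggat
BC002163: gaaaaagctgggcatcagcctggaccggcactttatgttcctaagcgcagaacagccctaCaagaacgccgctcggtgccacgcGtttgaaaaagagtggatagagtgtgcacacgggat

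With copy and gene summed, the log2 ratio of Ndufa12 was -1.30 and that of Ndufs5 was 1.14, close to the values for the genes alone. Without the 5 genes that have such a copy, the median log2 ratio of the remaining 31 was 0.41, against 0.28 for all 36.

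**Figure D3:**
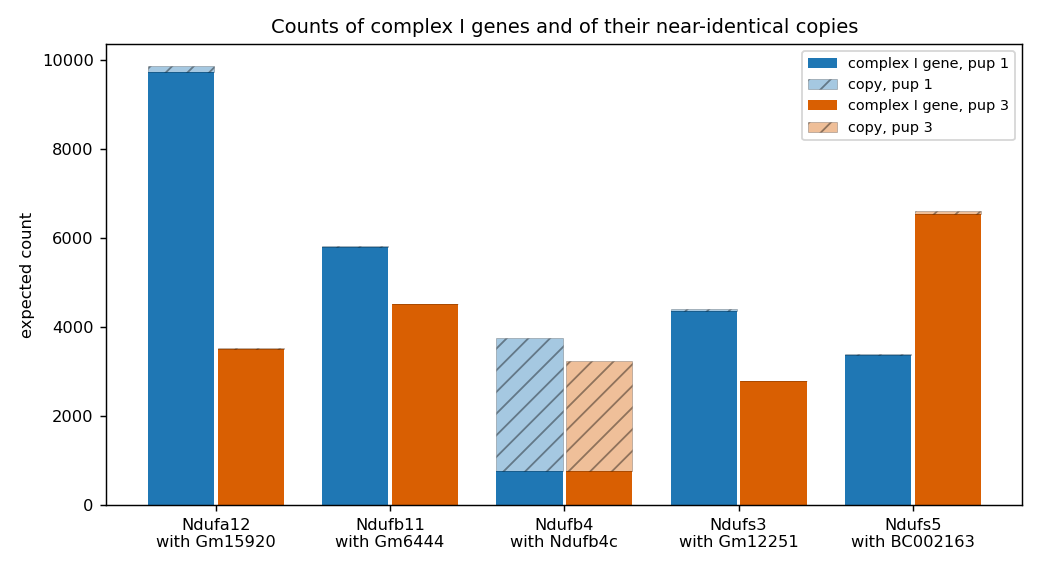
Expected counts of the 5 complex I genes that have a near-identical copy (solid) and of the copy (hatched, stacked on top), in pup 1 and pup 3, 1 library each. Only for Ndufb4 does the copy hold most of the counts.

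Ndufa4 was the highest of the 36 genes in both pups, at 1194 TPM in pup 1 and 2316 in pup 3, a mean of 1755 ± 793 TPM (SD, n = 2). It carries a complex I name, but its protein was later found with cytochrome c oxidase, complex IV. Its log2 ratio, 0.95, lay just under 2-fold and passed it under 3 of the 7 other scalings. Leaving Ndufa4 out moved the median log2 ratio of the list only from 0.28 to 0.27. Ndufa4l2, its relative known from low oxygen, had 1 and 0 counts.

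Most complex I genes used the same main transcript in both pups. Of the 36, 13 had a single listed transcript. Of the 23 with more, 21 had the same leading transcript, that of the largest share of the gene's TPM, in both pups. That is 91.3%, against 62.3% of 6095 protein-coding genes detected in both pups with more than 1 listed transcript. The 6095 genes were not matched for level. The exceptions were Ndufa10 and Ndufv1. In Ndufv1, Ndufv1-201 took 60.9% of the gene's TPM in pup 1 and 35.4% in pup 3, and Ndufv1-207, also annotated as protein coding, took 25.9% and 46.0%. In Ndufa10, the retained-intron transcript Ndufa10-204 took 31.2% in pup 1 and 22.7% in pup 3, and Ndufa10-207, annotated for nonsense-mediated decay, took 25.7% and 36.6%.

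A few genes had much of their TPM in transcripts not annotated as protein coding. The leading transcript was of that kind in 3 of the 23 genes in each pup, against 14.8% of the 6095 genes in pup 1. In Ndufa5 the processed transcript Ndufa5-204 took 91.8% in pup 1 and 65.5% in pup 3. In Ndufb4 the retained-intron transcript Ndufb4-202 took 73.8% and 51.6%. For Ndufb4 the coding transcript, which shares its coding letters with Ndufb4c, had only 356 counts in pup 1 and 528 in pup 3. Ndufb4-202 was not compared with the copy. In Ndufa10 all such transcripts together took 81.9% and 88.5%, and the full coding transcript Ndufa10-201 took 18.1% and 11.5%. Ndufa10 thus had 269 and 173 TPM as a gene, but its coding transcript had 43.1 and 17.9 TPM as deposited. Ndufb10 and Ndufa7 also differed between the pups: the leading coding transcript took 67.1% and 98.1% in Ndufb10, and 90.6% and 64.0% in Ndufa7. In Ndufv3, which has a long and a short form, the short transcript Ndufv3-202 took 83.6% in pup 1 and 94.8% in pup 3, and the long Ndufv3-201 took 16.4% and 5.20%. Reads are divided among overlapping transcripts by estimate, so these shares are less certain than the level of the gene.

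**Figure D4:**
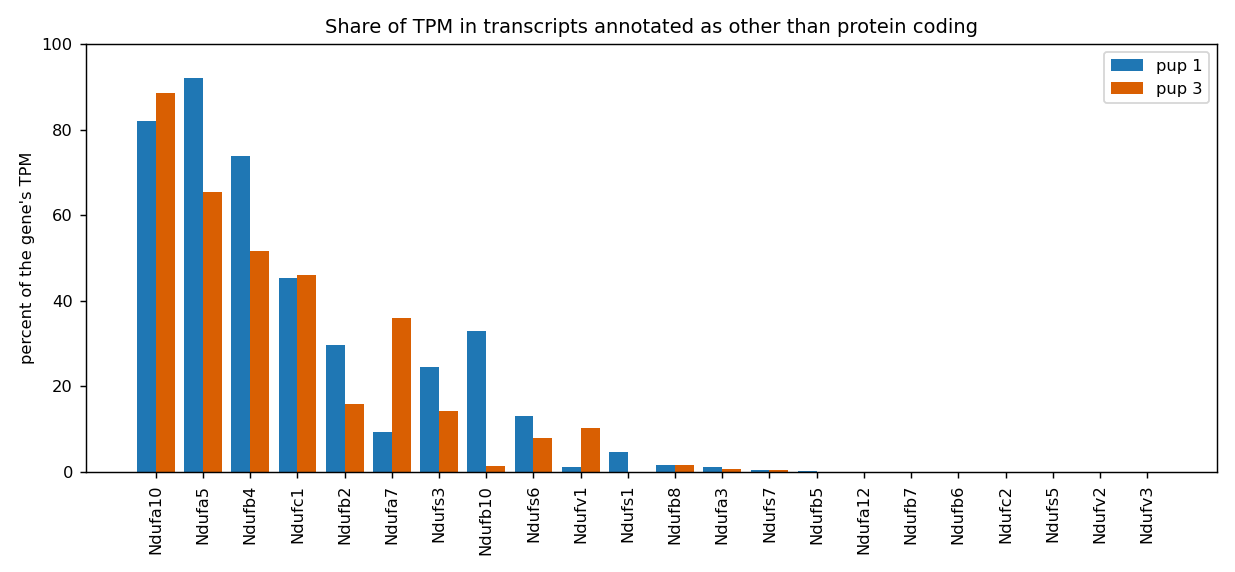
Percent of each gene's TPM in transcripts annotated as other than protein coding, for 22 of the complex I genes with more than 1 listed transcript, in pup 1 and pup 3 (1 library each). Ndufa10, Ndufa5 and Ndufb4 exceed 50% in both pups, while for most genes the share is small.

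The start regions of the genes were read for motifs of 4 factors known from promoters of mitochondrial genes. A promoter here is 250 bases before to 50 after the RefSeq start (GRCm38.p6), searched on both strands, and 33 of the 36 genes matched that table. The YY1 motif AAGATGGC was held by 7 of the 33, 21.2%, against 3.57% of 17492 protein-coding genes. The Sp1 motif GGGCGG was held by 14, 42.4%, against 49.2%. The ETS motif CCGGAAG was held by 4, 12.1%, against 12.9%, and the NRF1 core motif GCGCATGC by 3, Ndufa6, Ndufa8 and Ndufa11, 9.09% against 3.94%. Extended by GC at its end, the form searched first, the NRF1 motif was held by 1, Ndufa11, 3.03% against 1.47%. The median GC content of the promoters was 59.0% for the complex I genes and 56.3% for all genes.

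In all 7 genes the YY1 motif lay on the gene strand, 23 to 39 bases into the transcript, and its ATG was the annotated start codon. Over all 17492 genes a motif at the start codon was found in 170, 0.972%, or 27.2% of the 624 genes that hold the motif anywhere in the window. The 17492 genes were not limited to those with a start codon so near the start of the transcript. The windows are shown because the motif and the start of translation are the same letters in each. Capitals mark the motif.
Ndufa3: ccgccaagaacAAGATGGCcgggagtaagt
Ndufa9: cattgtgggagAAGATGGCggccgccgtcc
Ndufb8: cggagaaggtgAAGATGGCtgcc
Ndufc1: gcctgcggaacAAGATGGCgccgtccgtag
Ndufs4: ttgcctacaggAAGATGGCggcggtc
Ndufs6: gggtcaccggcAAGATGGCggcggtgct
Ndufs7: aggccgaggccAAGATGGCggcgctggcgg

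These 7 genes did not all go the same way between the pups: the log2 ratio was 1.33 for Ndufs6, 1.23 for Ndufs4, 1.18 for Ndufs7, 0.83 for Ndufa3 and 0.29 for Ndufb8, but 0.02 for Ndufa9, whose sign turned with the setting, and -0.90 for Ndufc1. A match of letters is a description and does not show binding. Yy1 itself had 105 counts in pup 1 and 0 in pup 3.

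Other genes of the complex I pathway were a further subunit, assembly factors and regulators. Ndufab1, the acyl carrier protein that is also a subunit, had 584 TPM in pup 1 and 570.1 in pup 3. The 16 assembly factors, proteins that build complex I but do not stay in it, summed to 709 TPM in pup 1 and 684 in pup 3, and 13 of the 16 were detected in both pups. Ndufaf6 had 759 counts in pup 1 and 0 in pup 3, Foxred1 had 1045 and 1, and Nubpl had 0 in both. Of the 15 detected, 2 were at least 2-fold higher in pup 3 and 5 in pup 1, or 7 in all, beside the 59.3% of all protein-coding genes detected in at least 1 pup. Their median log2 ratio was -0.25. The highest were Ndufaf3, at 101 and 123 TPM, and Ndufaf8, at 62.4 and 139.7 TPM. In expected counts Ndufaf3 went the other way, with 2673 in pup 1 and 1166 in pup 3. Of 7 regulators of mitochondrial genes, 4 were detected in both pups, and the median log2 ratio of the 6 detected in either was -1.23. Nrf1, a transcription factor for respiratory genes, had 53.5 and 30.4 TPM, and Gabpa, an ETS factor, had 19.9 and 16.9 TPM. The expected counts of Nrf1 were 2238 and 2084, a higher share of all nuclear counts in pup 3. The direction for Nrf1 thus turned with the scaling. Tfam, which packages mitochondrial DNA, had 757 and 0 counts, and Esrra had 0 in both. Among 5 subunit genes known from muscle or from low oxygen, none was detected in both pups, the highest being Cox7a1, with 90 and 1 counts, and Cox6a2, with 8 and 2. Detection in pup 1 alone occurred among these genes, as in 2633 of the 11905 protein-coding genes detected in at least 1 pup. It occurred for none of the 36 subunit genes and for none of the 2233 genes in their level range. A range set by geometric mean leaves out any gene at 0 in a pup.

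The subunits of complex I encoded in mitochondrial DNA went the other way in sum, under the main and all 7 other scalings. In TPM as deposited, which keeps mitochondrial genes in the total, the 7 mt-Nd genes summed to 14423 in pup 1 and 13467 in pup 3. The 36 nuclear genes on the same scale summed to 12963 and 17246. The ratio of the 7 mitochondrial genes to the 36 nuclear genes was therefore 1.11 in pup 1 and 0.781 in pup 3. The 36 include Ndufa4, at 1058 and 2075 deposited TPM, and leave out the subunit Ndufab1, at 518 and 511. The highest were mt-Nd1, at 6268 and 5752 deposited TPM, and mt-Nd4, at 2564 and 2962.

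The nuclear genes of complexes III, IV and V were also higher in sum in pup 3 under the main and all 7 other scalings, while the direction for complex II turned with the scaling. The 4 genes of complex II summed to 1578 TPM in pup 1 and 1722 in pup 3, the 9 of complex III to 5738 and 6485, the 10 of complex IV to 9062 and 13140, and the 15 of complex V to 11441 and 15107. The median log2 ratio was 0.54 in complex IV and 0.24 in complex V, beside 0.28 for the 36 complex I genes. In complex II it was -0.08, and in complex III 0.02, where it turned to -0.09 with DESeq2 size factors. At least 2-fold differences were seen in 11 of 36 complex I genes and in 0 of 4 genes of complex II. They were seen in 1 gene each of the 9, 10 and 15 of complexes III, IV and V. The share was 25.9% among the 2233 genes in the level range of the 36. The 11 became 8 with edgeR TMM factors or DESeq2 size factors. For complex II the sum in pup 3 was 1.09 times that in pup 1, and 0.951 times with DESeq2 size factors. The highest of these genes by mean, with pup 1 given first, were Sdhb (419 and 699.8 TPM) and Sdhc (451 and 455) in complex II, and Uqcr10 (741 and 1366) and Uqcrq (949 and 1014) in complex III. In complex IV they were Cox6b1 (1577 and 1969.9 TPM) and Cox6a1 (1279 and 1762), and in complex V Atp5b (1180.3 and 2793) and Atp5g1 (1193 and 1409). Ndufa4 was thus in the range of the highest complex IV genes.

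**Figure D5:**
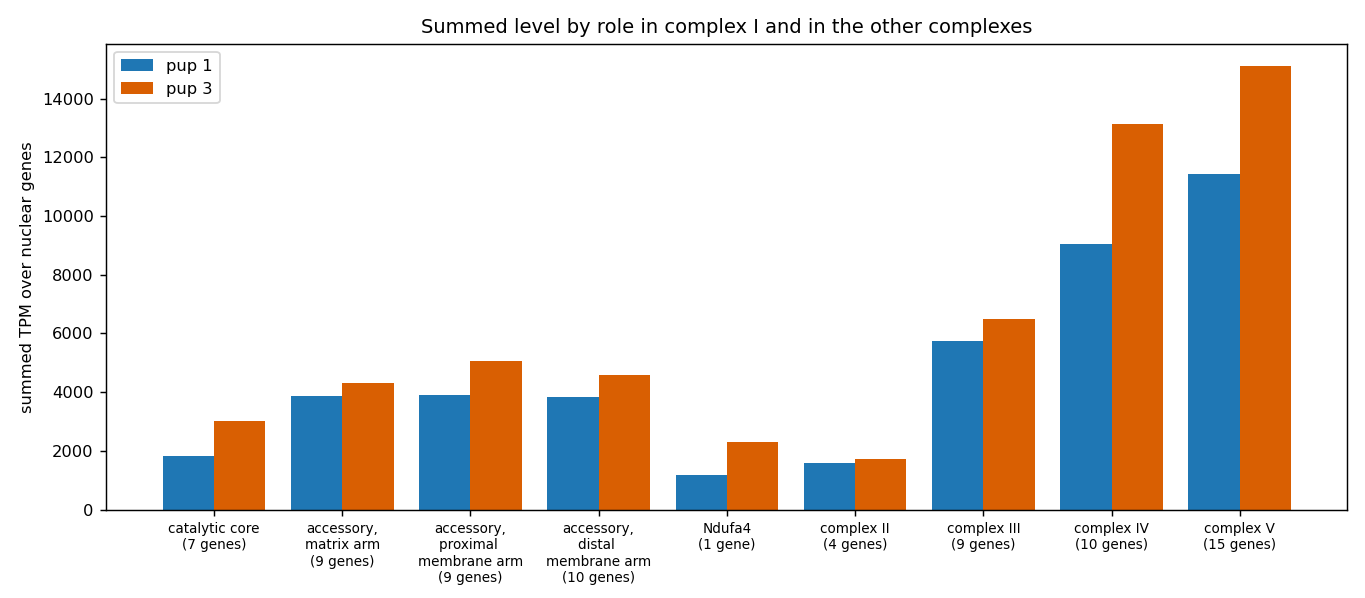
Summed TPM over nuclear genes in pup 1 and pup 3 (1 library each) for the complex I genes by place in the complex, for Ndufa4, and for the nuclear genes of complexes II to V; the number of genes in each list is under its name. Every bar of pup 3 is above that of pup 1, by the least in complex II, from 1578 to 1722 TPM.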

How the data were processed

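Libraries of 2 pups, 1 group, were used, with 1 gene table and 1 transcript table each. Per the labels' protocols, RNA was extracted with mirVana reagents. The authors' deposited tables were made on mm10 with annotation M4, per the notes deposited with them. Per the file headers they hold expected counts, TPM, FPKM and, for transcripts, the percent of the gene's TPM. The deposited TPM interval bounds, a signal of the estimate's precision, were not used. The aligner, its version and the use of strand are not stated there or in the labels.

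Of 43346 mouse genes, 42462 (98.0%) were named by stable identifier from GENCODE M21. TPM was rescaled over 43309 nuclear genes. Detection was an expected count of at least 5, the pseudocount was 1 and the fold threshold 2. A pseudocount understates the differences of low genes. Copies were matched with BLAST 2.17.0. edgeR 4.0.16 and DESeq2 1.42.0 gave alternative scalings from rounded expected counts, with no test. The fold calculation was tested on simulated data. Other tools were Python 3.11.15, pandas 2.3.3, scipy 1.17.1 and R 4.3.3. The rule for the members goes by name alone, but it and the lists were chosen with earlier results of these data known. The values of 1 member are in the counts and sums but are not reported singly here. Named with values by pup were the other core members, the 5 highest and 5 lowest by mean, the 5 largest ratios in each direction, Ndufa4, and from the other lists the highest 2 and those missing from 1 library. Overlapping genes, transcripts and motif genes were named after their values were seen.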

Additional observations from a re-analysis of the deposited data

How the results depend on the processing

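The number of genes at 2-fold or more was 8 to 12 under other scalings, pseudocounts and filters, against 11. At 4-fold it was 0 on the main scale, beside 37.7% of all protein-coding genes detected in at least 1 pup. It was 1, Ndufb2, with FPKM, CPM or spike-in scaling. Of the 11 genes, 8 passed 2-fold under every one of the 7 other scalings, while Ndufs8, Ndufv2 and Ndufv3 each fell short in 3. The filters cannot change the ratio of a gene, and the pseudocounts hardly did at these levels. The median log2 ratio of the 36 genes, 0.28, was 0.34 with deposited FPKM, 0.33 with CPM of nuclear counts, 0.19 with edgeR TMM factors, 0.17 with DESeq2 size factors, 0.36 with TPM scaled to the spike-ins and 0.41 without the 5 genes that have a near-identical copy. The same scalings moved the median of all 8931 nuclear genes detected in both pups from 0.12 to between -0.01 and 0.19. At 90% identity 11 genes had a copy, against 5. In each library alone all 36 genes were detected, and the summed level was 14636.8 to 19252.6 TPM. By place it was 1838.8 to 3004.2 TPM for the core, 3873.9 to 4306.2 for the matrix arm, 3896.3 to 5048.2 for the proximal and 3833.3 to 4578.0 for the distal membrane arm, and 1194.5 to 2316.0 for Ndufa4. No paired analysis was possible because there is 1 group and each pup has 1 library. The alternatives with Ndufb4 joined to its copy, with the M21 length of Ndufa11, without Ndufa4 and at 90% identity were chosen after seeing the data. With 2 libraries the spread between animals is known only from 1 difference, so neither a small nor a large one can be set against a replicate error.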
